A study of Drosophila melanogaster with 2 samples.

Results

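The genes described here encode the subunits of the proteasome, the protease that degrades ubiquitin-tagged proteins, and the question was whether peaks of the GATA factor GATAd lie at their promoters. Members are all protein-coding genes whose symbol starts with Prosalpha, Prosbeta, Rpn or Rpt, which gave 48 of the 13945 protein-coding genes on the 6 chromosome arms with peaks. By symbol, 25 belong to the core particle and 23 to the regulatory particle. A letter T or R after the subunit number marks 16 of the 48 as paralogues, and the other 32 are called general subunits here. The material was whole wandering larvae of the third instar, males and females pooled, of the Drosophila melanogaster strain GATAd-GFP, a stable transgenic line whose GATAd protein carries a C-terminal GFP. Chromatin was precipitated with an antibody against GFP, although the antibody field of the labels reads GATAd. The labels do not say which promoter drives the fusion gene. There is 1 group with 2 biological replicates, numbered 2 and 3, and no other genotype to set it against. In chromatin from whole larvae strong occupancy in few cells and weak occupancy in many cannot be told apart.

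The core particle is a barrel of stacked rings. Alpha subunits form the outer rings, which act as the gate, and beta subunits form the inner rings, where beta1, beta2 and beta5 carry the proteolytic sites. The regulatory particle caps the barrel. Its Rpt subunits are ATPases that unfold the substrate, and its Rpn subunits bind ubiquitin chains (Rpn1, Rpn10, Rpn13), remove them (Rpn11) or form the scaffold of the lid (Rpn3, Rpn5, Rpn6, Rpn7, Rpn9, Rpn12). All cells need the proteasome, and several Drosophila subunits have paralogues known for expression in the testis. In flies the CncC and Maf-S factors are known to raise proteasome gene transcription through the antioxidant response element.

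Measurements came from 4 peak lists on the dm6 build. The IDR list holds the 1205 peaks that passed the authors' irreproducible discovery rate threshold, which keeps peaks whose ranks agree across replicates. The pooled list, the replicate 3 list and the replicate 2 list hold 30000 candidates each, background included, and all were called against the same control. A value is the authors' signal (column 7), an enrichment over control whose scale is not stated, so signals are compared within a list, and the few log2 ratios between the replicates are read against the median over peaks. The IDR list derives from the other 3, so the lists are not independent of each other. The lowest signal was 43.9 in the IDR list, 13.4 in the pooled list, 6.42 in replicate 3 and 9.56 in replicate 2. A gene was counted in a list when a summit lay within 1 kb of one of its transcription start sites (TSS). Read depth is unknown. With 1 group and 1 value per gene and list, no comparison below has a test, and genes are not replicates.

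Few proteasome genes carried a GATAd peak. Of the 48 members 2 (4.17%) had an IDR peak, against 1225 of all 13945 genes (8.78%). The 2 were Rpn5 and Rpn6, both lid subunits of the regulatory particle and both general forms. Members stayed below all genes at every setting tried, but the size of the gap depended on the setting. It was small for the 602 strongest IDR peaks (4.17% against 4.94%) and narrower within 250 bp (4.17% against 6.43%). With the 1205 strongest candidates of replicate 3 it was also small (8.33% against 9.36%). Within 5 kb it was wider (10.4% against 17.0%). The shares were low in the pooled and replicate 2 lists, and nearer that of all genes in replicate 3. A pooled candidate lay at 10 of the 48 members (20.8%), against 46.4% of all genes. Replicate 3 had a candidate at 22 members (45.8%), against 54.0% of all genes, and replicate 2 at 8 members (16.7%), against 44.7%. No list had a candidate at 24 of the 48 members, against 29.6% of all genes.

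**Figure D1:**
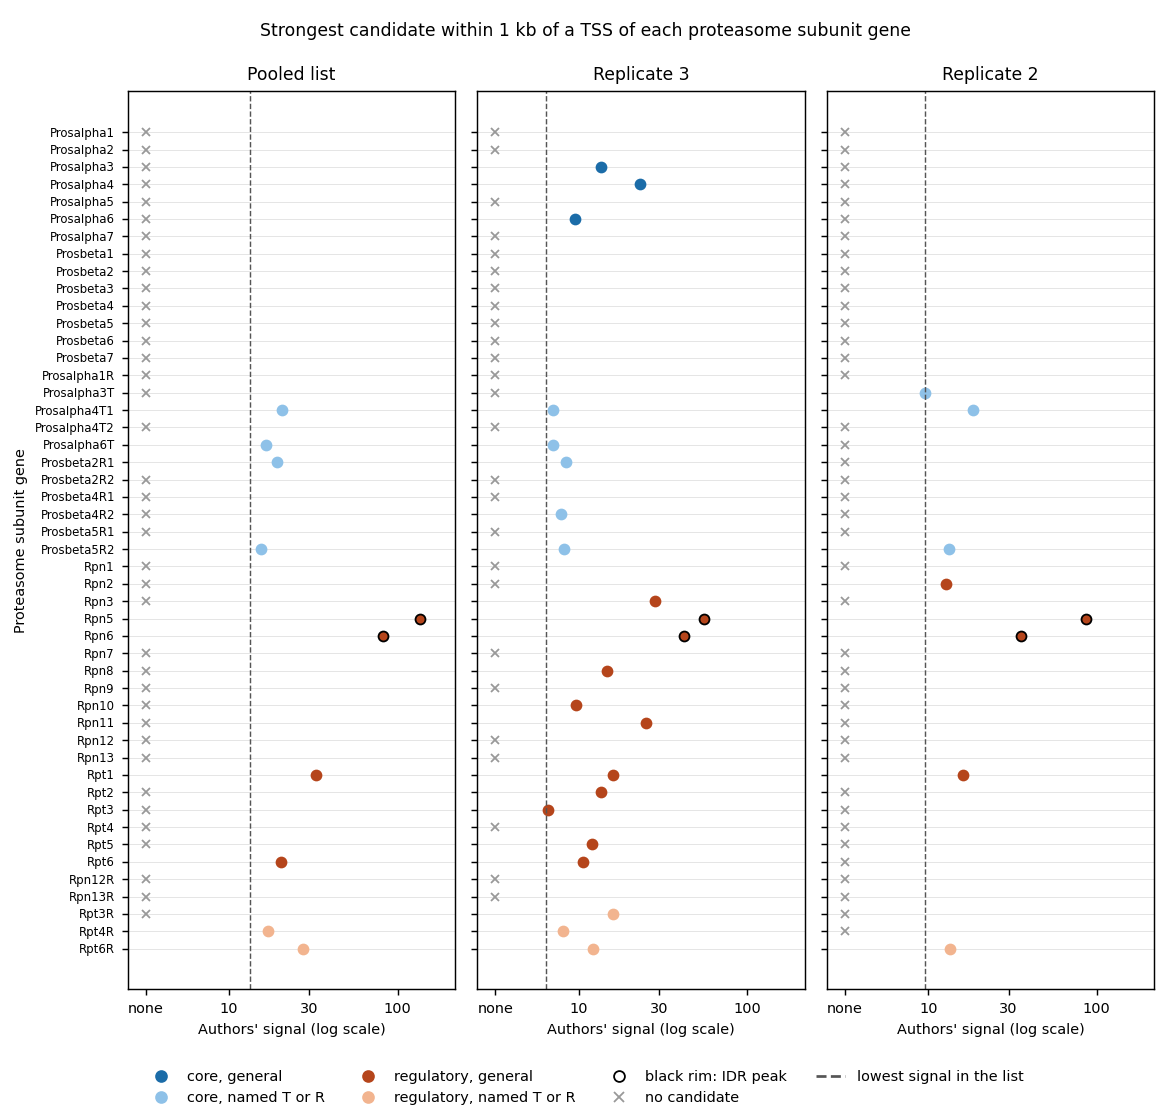
Signal of the strongest candidate within 1 kb of a TSS for each of the 48 proteasome genes (rows), in the pooled, replicate 3 and replicate 2 lists (panels, log axis). Crosses mark genes with no candidate and the dashed line is the lowest signal of the list. Rpn5 and Rpn6, with black rims, are the highest in all 3 panels, and the general core subunits at the top show nothing but crosses in the pooled and replicate 2 panels.

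The sequences that the values below refer to are printed here, on dm6 and on the strand of the gene, as 5' to 3' reads of the Release 6 reference. The Rpn5 sequence spans 150 bp before to 50 bp after the TSS and holds the IDR summit at its 19th base. The Prosbeta6 sequence covers the same span and is an example of a core gene without a candidate within 1 kb. It is not typical of them. Its nearest IDR and pooled summits lay at 1111 bp, against medians of 22153 bp and 8574 bp for general core genes. The Rpt6R and Rpt5 sequences reach 75 bp to either side of the strongest pooled summit and of a replicate 3 summit. Capitals mark the GATA word WGATAR (W is A or T, R is A or G) in Rpn5 and Rpt6R, and the DNA replication-related element (DRE, TATCGATA) in Prosbeta6 and Rpt5, on either strand.
Rpn5, chr3R:5789343-5789543, plus strand: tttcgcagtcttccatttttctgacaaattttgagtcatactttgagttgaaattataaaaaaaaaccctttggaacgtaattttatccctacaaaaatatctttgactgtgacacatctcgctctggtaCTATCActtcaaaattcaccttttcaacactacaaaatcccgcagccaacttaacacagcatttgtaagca
Rpt6R, chr3R:30583800-30583950, minus strand: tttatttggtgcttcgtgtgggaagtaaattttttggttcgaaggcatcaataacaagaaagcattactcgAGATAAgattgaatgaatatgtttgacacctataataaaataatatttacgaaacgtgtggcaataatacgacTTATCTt
Rpt5, chr3R:23752769-23752919, plus strand: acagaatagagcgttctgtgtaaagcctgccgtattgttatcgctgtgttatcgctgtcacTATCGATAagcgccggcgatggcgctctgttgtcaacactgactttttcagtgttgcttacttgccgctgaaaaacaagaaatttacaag
Prosbeta6, chr3L:16610368-16610568, minus strand: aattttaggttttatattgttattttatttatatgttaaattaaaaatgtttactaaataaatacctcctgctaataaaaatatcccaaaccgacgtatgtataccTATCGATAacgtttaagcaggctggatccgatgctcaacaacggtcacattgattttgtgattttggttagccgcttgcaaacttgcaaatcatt

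Rpn5, a scaffold subunit of the lid, had the strongest peak among the members. Its IDR and pooled signal was 135, rank 114 of 30000, on 3R from 5789169 to 5789552. Replicate 3 had 55.3 (rank 178) and replicate 2 had 86.8 (rank 73) as the strongest candidate within 1 kb. The summit lay 132 bp upstream of the Rpn5 TSS and 23 bp downstream of a TSS of Hat1, a histone acetyltransferase gene on the other strand, within the Hat1 5' UTR. The peak is therefore shared, and the nearer start is that of Hat1. Replicate 3 split the site into summits 325 bp and 104 bp upstream of Rpn5, with signals of 55.3 and 45.8. No WGATAR lay within 100 bp of the pooled summit, and the word in capitals in the Rpn5 sequence begins 20 bp upstream of the TSS. A stronger IDR peak, of 176 (rank 54, 3R from 5791599 to 5791982), lay 2298 bp downstream of the Rpn5 TSS and 88 bp upstream of the TSS of the neighbouring gene Hpf1.

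Rpn6, the subunit next to Rpn5 by number and also part of the lid, had an IDR and pooled signal of 81.6 (rank 365) on 2R from 14752172 to 14752555. Replicate 3 had 42.1 (rank 365) and replicate 2 had 35.5 (rank 616), so the site ranked high in each. The summit lay in an intron of Rpn6, 93 bp upstream of its inner TSS and 157 bp upstream of the TSS of ave, which starts in the same intron on the other strand. The log2 ratio of replicate 3 to replicate 2 was 0.25 at Rpn6 and -0.92 at Rpn5, taking the candidate with the summit nearest the pooled one. Over the 1168 IDR peaks with a candidate in both replicates the median ratio was -0.20 with an SD of 0.75 across peaks, so both genes lay within 1 SD of that median.

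**Figure D2:**
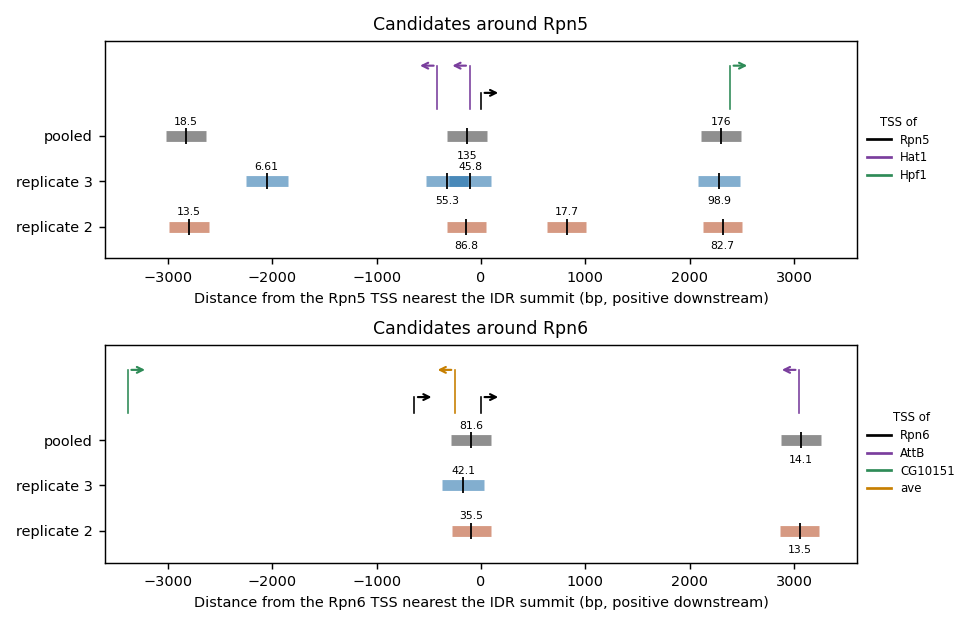
Candidates of the pooled, replicate 3 and replicate 2 lists (bars, with the summit as a tick and the signal as a number) against distance from the Rpn5 TSS (top) and from the Rpn6 TSS nearest its peak (bottom), in bp. Arrows mark TSSs and their direction: the pooled Rpn5 summit lies 132 bp from the Rpn5 start and 23 bp from a Hat1 start, and the pooled Rpn6 summit lies between the starts of ave and Rpn6.

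Among general subunits Rpt1 and Rpt6, both ATPases, had weaker pooled candidates. Rpt1 had 32.7 (rank 2091, 2R from 7653979 to 7654362), with 16.1 in replicate 3 and 16.0 in replicate 2. Its summit lay 217 bp upstream of the TSS, in an intron of CG17985, and 3 WGATAR words lay within 100 bp of it. Rpt6 had 20.4 (rank 8433, X from 21315536 to 21315919), 324 bp upstream of the TSS in an intron of CG1801, with 10.6 in replicate 3 and no candidate in replicate 2. Both signals are below the weakest IDR peak.

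The core particle had fewer genes in every list than the regulatory particle. Of 25 core members 0 had an IDR peak, and of 23 regulatory members 2 (8.70%) did, near the 8.78% of all genes. A pooled candidate lay at 4 core members and at 6 regulatory members (26.1%), both below the 46.4% of all genes. Among genes with a pooled candidate the median signal was 17.9 in the core particle, 30.1 in the regulatory particle and 21.5 over all genes. The strongest pooled signal was 20.7 in the core particle, at Prosalpha4T1, and 135 in the regulatory particle, at Rpn5. Replicate 3 listed 8 of 25 core members and 14 of 23 regulatory members (60.9%), against 54.0% of all genes. Replicate 2 listed 3 core members (12.0%) and 5 regulatory members (21.7%), against 44.7% of all genes. The subunit families with the highest and lowest share in replicate 3, picked after their values were seen, were the Rpt ATPases and the beta ring. Of the 9 Rpt genes 8 (88.9%) had a candidate there, all but Rpt4, at signals of 6.60 to 16.1. Of the 13 beta ring genes 3 (23.1%) did, at signals of 7.83 to 8.38, against 54.0% of all genes. The high share of the Rpt genes was limited to replicate 3. A pooled candidate lay at 4 of the 9 (44.4%, against 46.4% of all genes) and a replicate 2 candidate at 2 (22.2%, against 44.7%). Of the 9 Rpt genes 0 had an IDR peak, against 8.78% of all genes.

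None of the 14 general core genes had a pooled or replicate 2 candidate, against 46.4% and 44.7% of all genes. The 14 include Prosalpha1, which lies in repeated sequence described below. The 7 general beta subunits, among them the proteolytic Prosbeta1, Prosbeta2 and Prosbeta5, had none in replicate 3 either, against 54.0% of all genes. The nearest IDR peak to a general core gene was at Prosbeta6, just outside the 1 kb limit, with 44.1 at 1111 bp from its TSS and 40 bp from that of CG4098. Among alpha subunits replicate 3 had candidates at Prosalpha4 (23.2, rank 1329), Prosalpha3 (13.5) and Prosalpha6 (9.47). At each gene the strongest summit lay nearer a TSS of the gene on the other strand, kat80 at 41 bp, dgt3 at 149 bp and Npc1a at 29 bp, than that of the alpha subunit, at 49 bp, 370 bp and 164 bp.

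**Figure D3:**
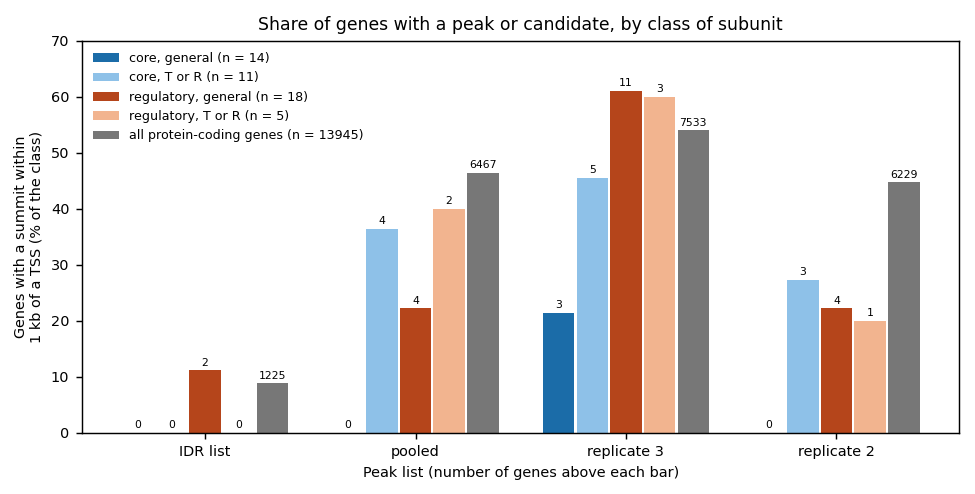
Share of genes (%) with a summit within 1 kb of a TSS in each of 4 peak lists, for general and T or R genes of the core and regulatory particles and for all protein-coding genes, with the number of genes above each bar. General core genes are at 0 in the IDR, pooled and replicate 2 lists and at 3 of 14 in replicate 3, while general regulatory genes reach 11 of 18 there.

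General subunits held the strongest peaks. Paralogues had a pooled candidate more often than general subunits but less often than all genes. The gap between the 2 classes was small in replicate 3. General genes had IDR peaks at 2 of 32 (6.25%) and pooled candidates at 4 of 32 (12.5%). The paralogues had 0 IDR peaks and pooled candidates at 6 of 16 (37.5%). Of all genes 8.78% had an IDR peak and 46.4% a pooled candidate. Without replicate 2, in the replicate 3 list, the counts were 14 of 32 general genes (43.8%) and 8 of 16 paralogues, against 54.0% of all genes. Without replicate 3, in the replicate 2 list, they were 4 of 32 (12.5%) and 4 of 16 (25.0%), against 44.7%. The general genes' pooled signals were 135, 81.6, 32.7 and 20.4, and those of the paralogues ran from 15.4 to 27.4, so the groups overlapped at the lower end. Their medians were 57.1 for general genes and 18.1 for paralogues. The median distance from a TSS to the nearest pooled summit was 6431 bp for general genes, 1738 bp for paralogues and 1203 bp for all genes. The nearest IDR summit lay at a median of 22935 bp, 48562 bp and 28548 bp for the same 3 sets.

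**Figure D4:**
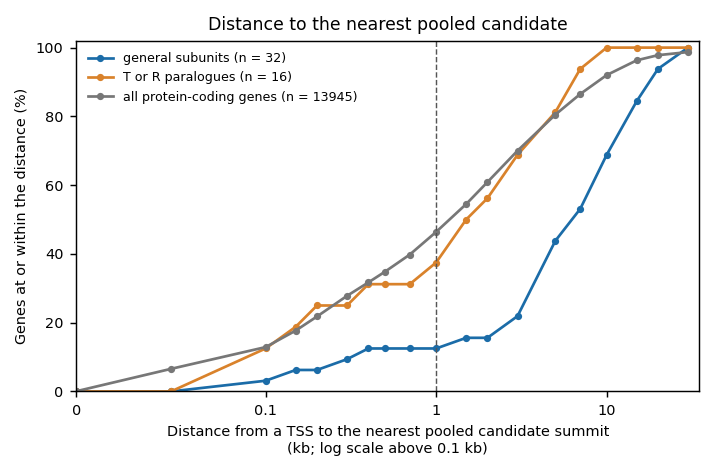
Share of genes (%) whose nearest pooled candidate summit lies at or within a given distance of a TSS (kb, log scale above 0.1 kb), for 32 general subunits, 16 T or R paralogues and all protein-coding genes. The dashed line is the 1 kb limit, where the curves stand at 12.5%, 37.5% and 46.4%.

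Rpt6R, a paralogue of the ATPase Rpt6, had the strongest paralogue signal, 27.4 (rank 3239, 3R from 30583683 to 30584066). Replicate 2 had 13.4 at the same summit. Replicate 3 had 7.91 near it and a stronger candidate of 12.2 at 4 bp upstream of the TSS. The pooled summit lay 178 bp upstream of the TSS, with a WGATAR word across it and another within 100 bp, both in capitals in the printed sequence. Prosalpha4T1 had 20.7 in the pooled list and 18.5 (rank 3306) in replicate 2, with the summit inside its coding exon 99 bp downstream of the TSS. Its replicate 3 candidates lay farther into the coding exon, the stronger with 7.01 at 769 bp, and none overlapped the pooled peak.

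The other paralogues with a pooled candidate ranked between 10418 and 21282 of 30000. Prosbeta2R1 had 19.2 in the pooled list and 8.38 in replicate 3, 834 bp and 818 bp upstream. Rpt4R had 17.1 and 8.08, and Prosalpha6T had 16.6 and 7.09, and replicate 2 listed none of these 3. Prosbeta5R2, a paralogue of the proteolytic beta5, had 15.4 in the pooled list, 8.21 in replicate 3 and 13.3 in replicate 2, with summits in its coding exon. Rpt3R (15.9) and Prosbeta4R2 (7.83) appeared in replicate 3 alone, and Prosalpha3T (9.60, rank 29680) in replicate 2 alone. Prosalpha1R, Prosalpha4T2, Prosbeta2R2, Prosbeta4R1, Prosbeta5R1, Rpn12R and Rpn13R appeared in no list.

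Candidates of replicate 3 without one in replicate 2 were frequent among the members. There were 16 such genes (33.3%), against 23.9% of all genes, while 2 members (4.17%), against 14.6% of all genes, had a candidate in replicate 2 and none in replicate 3. Those 2 were Rpn2, a base scaffold subunit, with 12.8, and Prosalpha3T. Among the strongest 1205 candidates of replicate 3 were 4 members (8.33%, against 9.36% of all genes), and among the strongest 1205 of replicate 2 were 2 (4.17%, against 7.98%). The 2 that only replicate 3 added were Rpn3, a lid subunit, with 28.4 (rank 902, 2L from 19051507 to 19051910), and Rpn11, the deubiquitinase of the lid, with 25.2 (rank 1150, 2L from 5059741 to 5060144). Their summits lay 81 bp and 153 bp upstream of the TSS, and neither gene had a candidate in the pooled or replicate 2 list. Of the 1205 strongest replicate 3 candidates in the genome, 137 (11.4%) likewise overlapped none in those 2 lists. Weaker candidates in replicate 3 alone lay at Rpn8 (14.7), Rpt2 (13.5), Rpt5 (12.0), Rpn10 (9.69) and Rpt3 (6.60).

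The Rpn3 window is printed because its sequence is partly doubled. Within 75 bp of the replicate 3 summit a run of 51 bases occurs 2 times, 78 bases apart, and both copies are in capitals. Over the 43 candidate windows of members searched in this way, which do not cover every member, the next longest run was 12 bases, at Rpt5.
Rpn3, chr2L:19051634-19051784, plus strand: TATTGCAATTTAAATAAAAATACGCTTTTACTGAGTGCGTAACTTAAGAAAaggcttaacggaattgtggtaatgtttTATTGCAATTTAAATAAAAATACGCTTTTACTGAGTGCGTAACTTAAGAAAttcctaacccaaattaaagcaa

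For 46 of the 48 members at least 90% of the 36-base words within 1 kb of the outermost TSS occurred once on the 6 arms. The exceptions were Prosalpha1 and its near copy Prosalpha1R on 2R, where 0% did. Reads of that length could not be placed uniquely there. Whether the authors' reads could be was not tested, so the absence of both genes from all lists is not read as a lack of occupancy. Without them 10 of 46 members (21.7%) had a pooled candidate, among them 4 of 31 general genes (12.9%) and 6 of 15 paralogues (40.0%).

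The promoters of the general subunits held the DRE more often than other promoters. Between 250 bp before and 50 bp after the outermost TSS, DRE was present at 12 of 32 general genes (37.5%) and 0 of 16 paralogues, against 9.37% of all genes. Of general genes 19 (59.4%) had the TSS of a divergent gene within 1 kb upstream, as did 3 paralogues (18.8%) and 35.2% of all genes. None of the 12 members with DRE had a pooled candidate or an IDR peak, whereas of the 1306 genes with DRE 43.6% had a pooled candidate and 13.0% an IDR peak. The 36 members without DRE were also below other genes. Of these members 27.8% had a pooled candidate and 5.56% an IDR peak, against 46.7% and 8.35% of all genes without DRE. Of the 22 members with a divergent neighbour 1 (4.55%), Rpn5, had a pooled candidate, against 48.6% of the 4914 such genes. Rpn6 is not among the 22, since neighbours were scored from the outermost TSS. Its peak nevertheless lay between its inner TSS and the TSS of ave on the other strand. In replicate 3, 4 of the 12 members with DRE (33.3%) had a candidate, Prosalpha3, Prosalpha6, Rpn3 and Rpt5, against 62.5% of all genes with DRE. In the printed sequences DRE begins 44 bp before the TSS in Prosbeta6, which has no candidate within 1 kb. In Rpt5 it begins 14 bp before the replicate 3 summit.

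**Figure D5:**
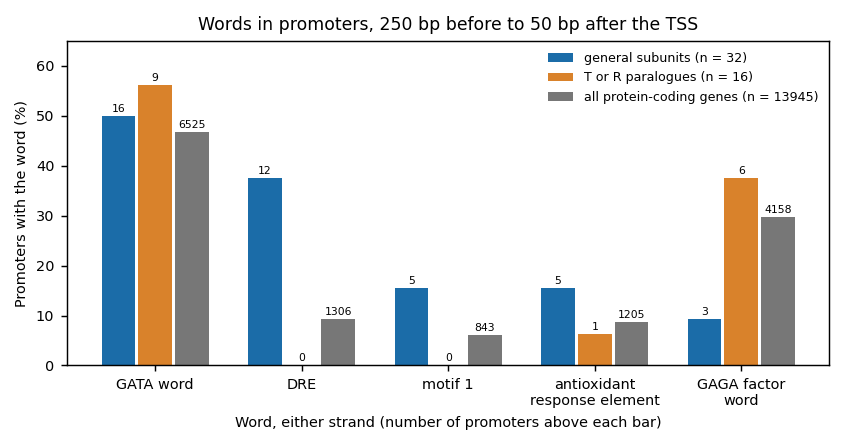
Share of promoters (%, 250 bp before to 50 bp after the outermost TSS) that hold each of 5 words on either strand, for general subunits, T or R paralogues and all protein-coding genes, with the number of promoters above each bar. DRE is at 12 general genes, 0 paralogues and 9.37% of all genes, and the GATA word is close to the level of all genes in both.

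WGATAR lay in the promoters of 16 of 32 general genes and 9 of 16 paralogues, against 46.8% of all genes. The antioxidant response element core, TGACNNNGC, lay at 5 general genes (15.6%), Prosalpha2, Prosbeta3, Rpn1, Rpn7 and Rpt6, and at the paralogue Prosbeta4R2, against 8.64% of all genes. Motif 1, GGTCACACT, a housekeeping core promoter word, lay at 5 general genes (15.6%) and no paralogue, against 6.05% of all genes. GAGAG, the GAGA factor word, lay at 3 general genes (9.38%) and 6 paralogues (37.5%), against 29.8%. The words were searched on both strands, and DRE holds the letters GATA but, with a C before them, cannot match WGATAR. At the 13 pooled candidates of members, WGATAR lay within 100 bp of 3 summits, at Rpt1, Rpt6R and Prosbeta5R2, against 35.4% of all 7445 pooled candidates at promoters. The other 4 words lay at 0 of the 13. Over all 7445 the shares were 3.14% for DRE, 1.36% for motif 1, 5.76% for TGACNNNGC and 21.4% for GAGAG. Median GC content of the promoters was 33.6% for general genes, 32.7% for paralogues and 37.9% for all genes.

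A chosen list of other genes of the ubiquitin-proteasome system, which does not cover the whole system, held no gene with an IDR peak within 1 kb. Of 22 listed genes 21 matched the annotation, and 0 of these had an IDR peak, against 8.78% of all genes. A pooled candidate lay at 10 of 21 (47.6%), which is near the 46.4% of all genes. Ubi-p63E, a polyubiquitin gene, had the highest pooled signal, 39.9 (rank 1430), with 13.1 in replicate 3 and 32.4 (rank 739) in replicate 2. The CncC gene cnc followed with 39.7 (rank 1449), 23.0 in replicate 3 and 21.3 in replicate 2. Both are below the weakest IDR peak of 43.9. The proteasome maturation chaperone Pomp had no candidate in any list.

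Other large complexes are given beside the proteasome for scale, with no test between them. Of all genes 46.4% had a pooled candidate and 8.78% an IDR peak. The proteasome had pooled candidates at 20.8% of 48 genes and IDR peaks at 2 (4.17%). The cytoplasmic ribosome, taken as symbols that start with RpL or RpS, had them at 52.2% of 92 genes and IDR peaks at 21 (22.8%). The vacuolar proton ATPase, symbols that start with Vha, had them at 57.6% of 33 genes and IDR peaks at 5 (15.2%).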

How the data were processed

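Chromatin immunoprecipitation with sequencing was measured in 2 samples of 1 group. Per the deposited file records, the authors called candidates on each replicate and on the pool against a control and derived the IDR list from these 3 lists. The deposited signal values in column 7 are the authors' enrichment, and summits were read from columns 2 and 10. Which aligner and caller made them, and at what IDR threshold, is not given in the sources used here. Another 4 lists, on dm3, were not used, since coordinates were not converted.

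Genes and TSSs of protein-coding transcripts came from Ensembl release 115 (BDGP6), and sequence from RefSeq's Release 6, the assembly of dm6; 0 pooled peaks ran past the end of an arm. Genes were joined to summits within 1 kb with Python 3.11.15, numpy 2.4.6 and pandas 2.3.3, a step tested on simulated summits. Words were searched within 100 bp of summits. Members were chosen by symbol, and the other gene list, the words and the named genes (members with an IDR peak, the 8 next by pooled signal, all paralogues, and the 2 highest of the ubiquitin-proteasome list) were chosen with earlier results of these data known. Rpn3, Rpn11, the other members named for replicate 3 and the further genes named were chosen after their values were seen. No test was run, and whether depth or the control move with any count was not tested.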

Additional observations from a re-analysis of the deposited data

How the results depend on the processing

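Within 5 kb of a TSS, IDR peaks were counted at 5 members (10.4%), 1 core, 4 regulatory and 5 general genes and 1 other ubiquitin-proteasome gene, against 17.0% of all genes. Within 2 kb, 1 core gene had one (4.00%, against 10.7% of all genes), where the main count was 0. Counting any base of the peak, 1 core gene also had one (4.00%, against 9.16% of all genes). With 1 gene per peak, Hat1 takes the Rpn5 peak and the counts were 1 member, 1 regulatory and 1 general gene, against 5.84% of all genes. With 1 replicate left out and the 1205 strongest candidates of the other used, members ranged from 2 to 4, regulatory genes from 2 to 4 and general genes from 2 to 4, the higher value without replicate 2 (9.36% of all genes) and the lower without replicate 3 (7.98%). Pooled candidates lay at 7 core genes within 2 kb (28.0%, against 60.9% of all genes). Within 5 kb they lay at 14 core (56.0%), 13 regulatory (56.5%), 14 general (43.8%) and 13 paralogue genes (81.2%), against 80.5% of all genes. With 1 replicate left out, the candidates in the list of the other replicate were counted in place of the pooled ones. These counts ranged from 3 to 8 in core genes, 5 to 14 in regulatory genes, 4 to 14 in general genes and 4 to 8 in paralogues. The higher counts were without replicate 2, in the replicate 3 list (54.0% of all genes). The lower were without replicate 3, in the replicate 2 list (44.7%). In the pooled list within 1 kb, regulatory genes were at 26.1%, against 46.4% of all genes. Regulatory genes at 60.9% in the replicate 3 list, and paralogues at 81.2% for pooled candidates within 5 kb, were at or above the share of all genes. For IDR peaks, regulatory genes were above it without replicate 2 (17.4% against 9.36%) and within 5 kb (17.4% against 17.0%). With only the 602 strongest IDR peaks they were at 8.70% against 4.94%. At 8.70% they were also above all genes within 250 bp (6.43%), within 500 bp (7.85%), at the outermost TSS (8.02%) and without replicate 3 (7.98%). Regulatory genes were below the share of all genes within 2 kb, with 1 gene per peak and counting any base of the peak. General genes were above it without replicate 2 (12.5% against 9.36%) and below it at most other settings. WGATAR lay within 200 bp of 8 of the 13 member summits and GAGAG of 1, against 56.3% and 38.3% of all pooled candidates at promoters.

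No paired analysis was possible because there is 1 group. Depth is unknown, so a gene without a candidate is one with no summit in the 30000 listed, not one without GATAd.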

Other observations

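Around the members, IDR peaks also stood near other genes. Within 5 kb of a TSS, 5 members had one. Besides Rpn5 and Rpn6, these were Prosbeta6, with 44.1 at 1111 bp, at the start of CG4098, and 90.2 at 1896 bp upstream, near the TSS of Su(P). Rpn2, a base subunit, had a peak of 55.6 at 4237 bp downstream, and the TSS within 1 kb of it was that of rdog. Rpt2, an ATPase, had one of 74.8 at 2902 bp upstream, in an intron of CG5854.

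Further genes of the chosen ubiquitin-proteasome list had weaker pooled candidates. The list as a whole, with 10 of 21 genes (47.6%), was near the 46.4% of all genes. Those next by pooled signal after Ubi-p63E and cnc are given here. The gene maf-S, whose product partners CncC, had a pooled signal of 31.0 and 25.7 (rank 1106) in replicate 3, with none in replicate 2, and its summit lay 114 bp from a TSS of rig. PI31, a proteasome regulator, had 26.7, and REG, the fly homologue of the PA28 activator, had 25.2. The gene ntc, which encodes an F-box protein, had 35.7 at a site 125 bp from its TSS and 126 bp from that of IntS10.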
